A study of Mus musculus with 8 samples.

Results

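The Reg family was followed in islets of individual mice: *Reg1*, *Reg2*, *Reg3a*, *Reg3b*, *Reg3d*, *Reg3g* and *Reg4*, the 7 genes whose RefSeq transcripts matched a Reg probe on the array, out of 21154 genes with a matched probe. Each of the 7 genes had 1 probe, and all 7 probes were compared, as were 39165 of the array's 55681 probes, each clearly brighter than background (Feature Extraction's own call) in 3 mice or more. Islets came from 4 WT and 3 CB1_KO male C57BL/6 mice on a standard diet, on 8 arrays of 1 slide, since CB1_KO mouse 2 was hybridised on 2 arrays (2-1 and 2-2) that were averaged. The sources differ on the CB1_KO mice. The series' title and design text name a beta-cell-specific knockout of the cannabinoid 1 receptor, which the study's methods describe as *Cnr1* flox/flox:MIP-Cre/ERT+ mice, with a tamoxifen-inducible Cre under the mouse insulin promoter, beside tamoxifen-injected flox/flox:MIP-Cre/ERT- littermates as controls. The sample labels describe a global knockout, a line the study also used, and which of these the CB1_KO arrays hold was not settled here; the age at islet isolation was not given for the arrays. WT arrays lay on one side of the slide and CB1_KO arrays on the other, so genotype and position on the slide cannot be told apart, and 33304 to 39988 probes were well above background on each array. *Cnr1* itself was at -1.11, -0.77, -0.53 and -0.01 in WT mice 1 to 4 and at -2.30, -3.13 and -2.28 in CB1_KO mice 1 to 3, lower in every knockout mouse, with a log2 difference of -1.97 ± 0.33 (SE, limma adjusted p = 0.193). Here and below a level is the log2 intensity of a probe relative to the 75th percentile of its array, so a value of 1 is a doubling of that reference, and levels of different probes are not comparable with each other.

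Reg (regenerating) genes encode small secreted proteins with a C-type lectin-like fold that were first described in regenerating islets. In the healthy pancreas they are mainly products of acinar cells, the enzyme-secreting cells that surround islets and are carried along in hand-picked islet preparations, and several are induced in pancreatitis. *Reg3b* and *Reg3g* encode antibacterial lectins of the gut and pancreas that respond to cytokines of the IL-6 and IL-22 families through STAT3, *Reg1* and *Reg2* encode the pancreatic stone protein group, *Reg3d* is a relative of islet neogenesis-associated protein, and *Reg4* is a gene of the gut epithelium. The question was whether each gene moved between mice with acinar genes or varied on its own. In RNA from whole islet preparations a lower share of acinar cells and less RNA per acinar cell cannot be told apart.

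All Reg genes but *Reg4* lie in 1 cluster on chromosome 6, in the RefSeq order *Reg3b*, *Reg3d*, *Reg3a*, *Reg2*, *Reg1*, a pseudogene and *Reg3g*, and *Reg4* lies on chromosome 3. The 250 bases before the annotated start are shown for *Reg1* and *Reg3d*, which moved together between mice, and for *Reg2* and *Reg3b*, which had r = 0.90 with each other (RefSeq, GRCm38.p6, each written 5′ to 3′ on the gene's own strand). Capitals mark matches, on either strand, to the E-box CACCTG and the TC-box TTTCCC, motifs known for the acinar factor PTF1, to the TATA box TATAAA, and to the STAT site TTCNNNGAA.
Reg1, chr6:78425733-78425982, + strand: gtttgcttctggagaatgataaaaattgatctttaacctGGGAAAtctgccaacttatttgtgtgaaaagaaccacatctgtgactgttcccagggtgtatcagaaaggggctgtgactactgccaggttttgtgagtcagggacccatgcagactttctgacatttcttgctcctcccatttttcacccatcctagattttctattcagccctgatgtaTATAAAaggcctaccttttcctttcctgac
Reg3d, chr6:78378866-78379115, - strand: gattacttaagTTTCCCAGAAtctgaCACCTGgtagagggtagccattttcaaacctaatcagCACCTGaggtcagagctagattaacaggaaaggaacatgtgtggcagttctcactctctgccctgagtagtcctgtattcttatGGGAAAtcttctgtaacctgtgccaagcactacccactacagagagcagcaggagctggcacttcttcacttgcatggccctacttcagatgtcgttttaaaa
Reg2, chr6:78404905-78405154, + strand: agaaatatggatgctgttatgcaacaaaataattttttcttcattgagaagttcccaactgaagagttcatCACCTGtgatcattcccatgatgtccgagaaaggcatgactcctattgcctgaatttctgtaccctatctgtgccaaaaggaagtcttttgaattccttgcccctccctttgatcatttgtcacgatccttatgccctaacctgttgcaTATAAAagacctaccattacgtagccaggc
Reg3b, chr6:78370635-78370884, + strand: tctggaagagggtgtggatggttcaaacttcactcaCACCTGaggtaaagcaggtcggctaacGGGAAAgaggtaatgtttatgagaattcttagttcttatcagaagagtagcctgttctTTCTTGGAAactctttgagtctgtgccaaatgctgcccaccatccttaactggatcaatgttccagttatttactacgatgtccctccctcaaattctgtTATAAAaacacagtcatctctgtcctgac
The TATA box was in 4 of the 7 Reg windows and in 12.4% of the 32851 RefSeq windows of this length, at 30 bases before the start in *Reg1* and *Reg2*, 29 in *Reg3b* and 27 in *Reg3g*, whose window also held a match on the opposite strand at 161 bases. The STAT site was found in *Reg3b*, at 129 bases before the start, and in *Reg3d*, at 238 bases, where it overlaps the TC-box at 239 bases; 7.0% of all windows held this motif. The E-box was in 5 of the 7 Reg windows and in 17.2% of all windows, and the TC-box in 4 of the 7 and in 21.9% of all. Of the pair *Reg1* and *Reg3d*, both held a TC-box and *Reg3d* alone held an E-box. A match of letters is a description of the sequence and not evidence of binding.

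*Reg1* and *Reg3d* moved together between mice, and followed *Cel* (r = 0.98 and 0.96) and a mean of 28 acinar markers, but not *Cpa1* (r = -0.04 and 0.02). Their r to *Ctrb1* was 0.86 and 0.87, without passing the limma threshold (adjusted p = 0.0828 and 0.0752). *Reg1* was at 10.37, 8.67, 10.25 and 10.31 in WT mice 1 to 4 and at 10.65, 10.66 and 9.49 in CB1_KO mice 1 to 3. *Reg3d* was at 7.24, 5.14, 6.67 and 6.71 in the WT mice and at 7.52, 7.69 and 6.20 in the CB1_KO mice. For both genes the low mice were WT 2 and CB1_KO 3, 1 from each genotype, and the groups overlapped. The 75th percentile intensity used for scaling was 362.1 for CB1_KO 3 and 235.5 to 289.4 on the other arrays. Before scaling, the *Reg3d* intensity was 26712 in CB1_KO 3, 26909 in WT 3 and 10170.7 in WT 2. That of *Reg1* was 261279, 323582 and 117686 in the same mice. The part of the scaling in the low levels of CB1_KO 3 was not tested. The order of the 7 mice was the same for *Reg1* as for *Reg3d* (Spearman rho 1, exact permutation p = 0.000397; Pearson r = 0.97), and in the limma fit on the level of *Reg1* the slope of *Reg3d* was 1.17 ± 0.15 log2 units per log2 unit (adjusted p = 0.00929). Leaving out the 2 mice farthest from the median of *Reg1*, WT 2 and CB1_KO 3, left r = 0.94. The adjusted p rose to 0.130 without WT 2 alone and to 0.0601 under quantile normalisation, so the call was lost in both.

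**Figure D1:**
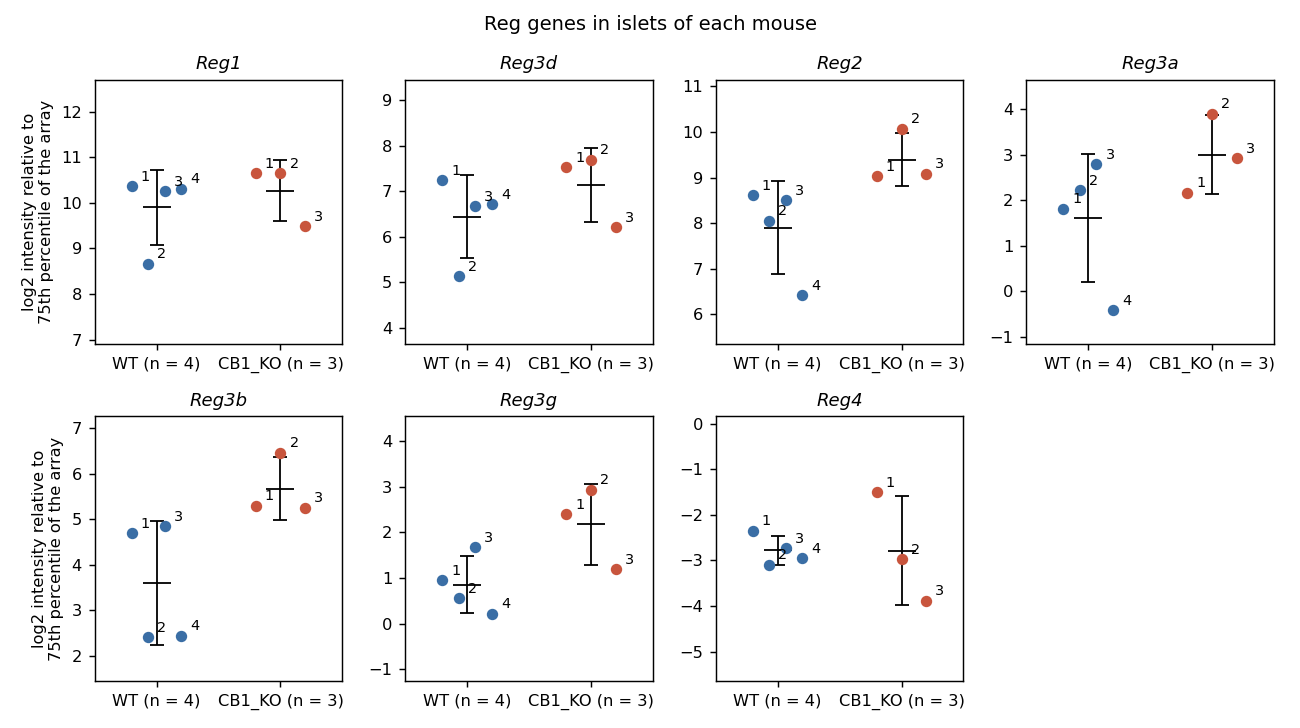
Level of each Reg gene (log2 intensity relative to the 75th percentile of the array, y axis) in 4 WT and 3 CB1_KO mice, with the mouse number beside each point and the mean ± SD as bars; every panel spans the same number of log2 units. Reg1 and Reg3d were low in WT 2 and CB1_KO 3, and Reg2 and Reg3a were lowest in WT 4 and highest in CB1_KO 2.

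The acinar reference was first taken as the mean of *Cpa1*, *Cel* and *Ctrb1*, the genes of carboxypeptidase A1, carboxyl ester lipase and chymotrypsinogen B, each centred on its own mean over the mice. This 3-gene index was 0.17, -0.26, 0.08 and -0.10 in WT mice 1 to 4 and 0.31, 0.29 and -0.49 in CB1_KO mice 1 to 3. The 3 genes did not rank the mice alike. *Cel* was at 11.20, 10.06, 11.03 and 10.98 in the WT mice and at 11.35, 11.29 and 10.36 in the CB1_KO mice, whereas *Cpa1* was at 10.72, 11.07, 10.72 and 10.38 in the WT mice and at 10.91, 10.87 and 10.19 in the CB1_KO mice. WT 2 was thus the lowest mouse for *Cel* and the highest for *Cpa1*, and over the 7 mice r was 0.13 between *Cpa1* and *Cel* and 0.94 between *Cel* and *Ctrb1*. *Ctrb1* was at 10.87, 10.39, 10.77 and 10.63 in the WT mice and at 10.94, 10.99 and 10.27 in the CB1_KO mice, a range of 0.72 log2 units. No spot was saturated.

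A broader reference, the mean of 28 other acinar markers (amylase, elastases, lipases, trypsinogens and acinar transcription factors among them), separated the mice more. It was 0.38, -1.12, 0.06 and 0.19 in WT mice 1 to 4 and 0.68, 0.53 and -0.76 in CB1_KO mice 1 to 3. Of the 28 markers, 21 were lowest in WT 2 and the other 7 in CB1_KO 3. All 28 had a higher mean in CB1_KO than in WT islets, with a median log2 difference of 0.23 beside -0.017 over all probes compared. Over all probes compared, 18673 were higher and 20492 lower. None of the 28 passed the limma threshold between genotypes, and 0 had an unadjusted p under 0.05. The 28 moved nearly as 1 signal (median r to their mean 0.99), so they are not 28 separate observations. With WT 2 set aside, the marker mean ran from 0.06 to 0.38 in WT and from -0.76 to 0.68 in CB1_KO mice. *Cel* followed this mean with r = 0.995, *Ctrb1* with r = 0.93 and *Cpa1* with r = 0.13.

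Against the marker mean, *Reg1* rose by 1.04 ± 0.12 log2 units per log2 unit (SE, limma adjusted p = 0.00474; r = 0.98, exact permutation p = 0.000397; rho = 0.96). *Reg3d* rose by 1.24 ± 0.17 log2 units per log2 unit (adjusted p = 0.00736; r = 0.96, exact permutation p = 0.000595; rho = 0.96). In that fit 5.5% of the 39137 probes tested rose past the threshold (2152 probes), so both genes were among many that did so. The mice fell into a low pair and a group of 5, but r within those 5 was still 0.94 for *Reg1* and 0.93 for *Reg3d*. In the limma fit without WT 2 the adjusted p was 0.0593 for *Reg1* and 0.0961 for *Reg3d*, and without any other single mouse it was between 0.0099 and 0.0380 for both. The slopes depended on the processing. They were 1.93 for *Reg1* and 1.24 for *Reg3d* with normexp background correction, and 1.00 and 1.59 under quantile normalisation.

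With the 3-gene index, r over the 7 mice was 0.80 for *Reg1*, 0.81 for *Reg3d* and 0.81 for *Reg4* (exact permutation p = 0.0286, 0.0242 and 0.0234). An r of this size to the index was not particular to acinar genes. The beta cell genes *Ins2*, *Iapp* and *Ins1* had r of 0.97, 0.91 and 0.87 to it, while the other 7 of 10 beta cell markers had slopes below 0. None of the 7 Reg genes passed the adjusted threshold in this fit (limma adjusted p between 0.112 and 0.790), and 0% of the 39162 probes tested rose past it, with 7751 rising at an unadjusted p under 0.05. With normexp background correction both *Reg1* and *Reg3d* passed against this index (r = 0.94 and 0.97, limma adjusted p = 0.00453 and 0.00294), as did 2227 rising probes. Under quantile normalisation these r turned to -0.51, -0.63 and -0.50, while against the 28-marker mean the r of *Reg1* and *Reg3d* stayed at 0.92 and 0.94 with the same values. With *Cpa1* alone r was -0.04 for *Reg1* and 0.02 for *Reg3d*, and with *Cel* alone it was 0.98 and 0.96.

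**Figure D2:**
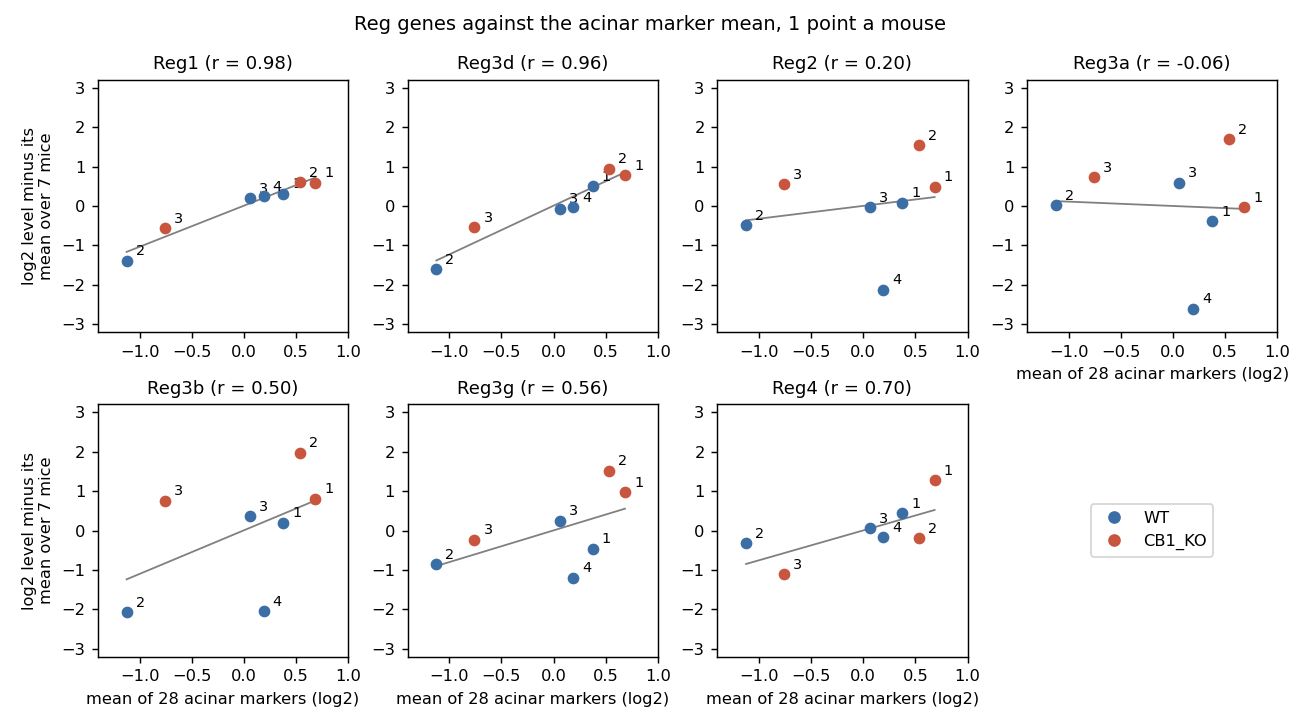
Level of each Reg gene minus its mean over the 7 mice (log2, y axis) against the mean of 28 acinar markers (log2, centred, x axis), 1 point a mouse with its number, WT blue and CB1_KO red, with a least-squares line. Reg1 and Reg3d lie along the line (r = 0.98 and 0.96), while Reg2 and Reg3a scatter around a nearly flat one (r = 0.20 and -0.06).

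*Reg2* and *Reg3a* did not pass the threshold against either acinar reference. *Reg2* was at 8.62, 8.06, 8.50 and 6.42 in WT mice 1 to 4 and at 9.03, 10.07 and 9.09 in CB1_KO mice 1 to 3. *Reg3a*, whose human namesake encodes a pancreatitis-associated protein, was at 1.81, 2.22, 2.79 and -0.41 in the WT mice and at 2.16, 3.89 and 2.93 in the CB1_KO mice. WT 4 was the lowest and CB1_KO 2 the highest mouse for both, and both mice were near or above the middle of the acinar marker mean. Over the 7 mice the range was 12.6-fold for *Reg2* and 19.7-fold for *Reg3a*. Their r to the marker mean was 0.20 and -0.06 (exact permutation p = 0.668 and 0.896), and without WT 4 alone the r of *Reg2* was 0.54. *Reg2* in CB1_KO 3, where acinar markers were low, was at 9.09, above every WT mouse.

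*Reg3b* and *Reg3g*, the genes of the antibacterial lectins, lay between these patterns. *Reg3b* was at 4.69, 2.42, 4.85 and 2.44 in WT mice 1 to 4 and at 5.29, 6.46 and 5.25 in CB1_KO mice 1 to 3. WT 2 and WT 4 were the low mice, of which WT 2 was also low for acinar markers and WT 4 was not. *Reg3g* was at 0.96, 0.56, 1.68 and 0.22 in the WT mice and at 2.39, 2.94 and 1.19 in the CB1_KO mice. Their r to the marker mean was 0.50 and 0.56 (exact permutation p = 0.232 and 0.186), and neither passed the limma threshold (adjusted p = 0.327 and 0.267). Single mice weighed heavily here, as the r of *Reg3b* was 0.11 without WT 2 and 0.72 without WT 4, and that of *Reg3g* 0.44 and 0.75. Within the 5 mice without WT 2 and CB1_KO 3, r to the 3-gene index was 0.91 for *Reg3b*, 0.88 for *Reg3g*, 0.93 for *Reg2* and 0.79 for *Reg3a*, which rests on 5 points; to the marker mean it was 0.57, 0.63, 0.59 and 0.34. Whether these slopes differ from those of *Reg1* and *Reg3d* was not tested.

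*Reg2*, *Reg3a*, *Reg3b* and *Reg3g* moved more with each other than with acinar genes by the size of r, which is a description and was not tested as a difference. The r was 0.93 for *Reg2* with *Reg3a*, 0.90 for *Reg2* with *Reg3b*, 0.84 for *Reg2* with *Reg3g* and 0.88 for *Reg3b* with *Reg3g* (exact permutation p = 0.00774, 0.00159, 0.0109 and 0.0139, unadjusted, among 21 pairs of Reg genes). The relation of *Reg2* to *Reg3a* rested on WT 4 and CB1_KO 2, since r fell to 0.27 without them, and those of *Reg3a* to *Reg3b* and *Reg3g* fell to 0.27 and 0.13. That of *Reg2* to *Reg3b* stayed at 0.90 without the same mice, and that of *Reg2* to *Reg3g* fell to 0.64. No pair among these 4 genes passed the limma threshold over all probes, and the fits on the level of *Reg2*, *Reg3a*, *Reg3b* and *Reg3g* called 0 of 39164 probes each, with 1192, 769, 1845 and 2952 probes at an unadjusted limma p under 0.05. The fit on *Reg1* called 1518 probes and that on *Reg3d* 1731, and 22 of the 28 acinar markers rose with each, as did 3.28% of all probes tested with *Reg1* and 3.39% with *Reg3d*. Probes for related genes can bind each other's transcripts, and this was not tested, as the probe sequences were not used here.

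**Figure D3:**
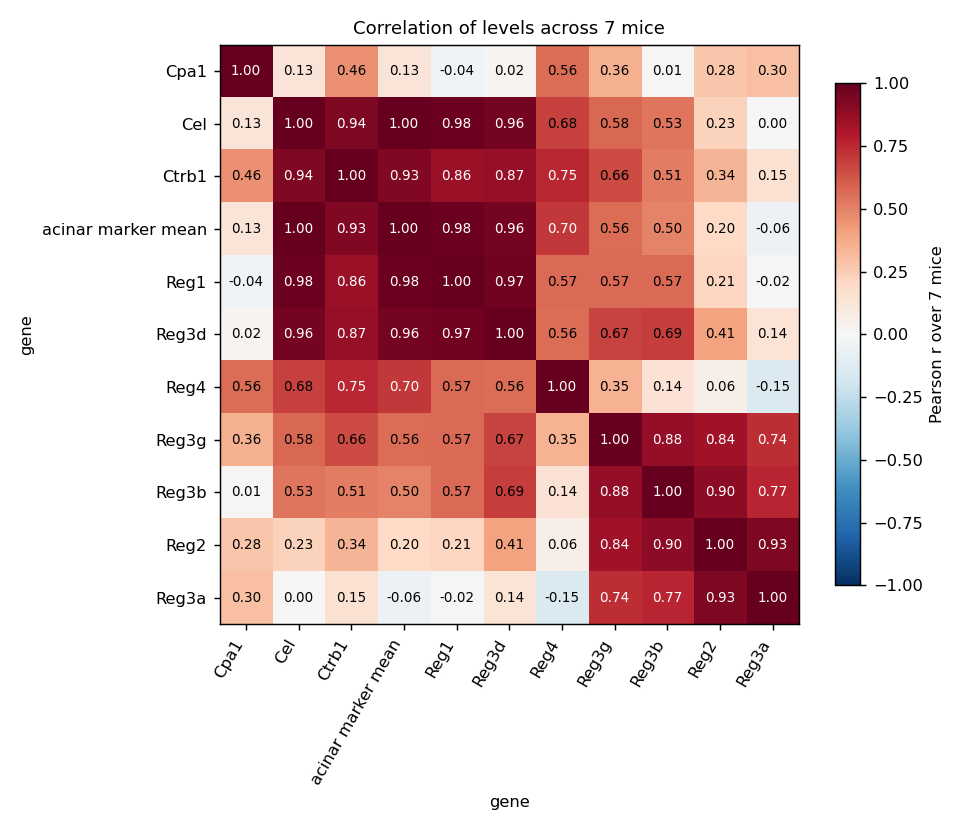
Pearson r over 7 mice between the levels of the 7 Reg genes, the 3 index genes and the mean of 28 acinar markers (colour scale from -1 to 1, both axes list the genes). Reg1 and Reg3d form a block with Cel, Ctrb1 and the marker mean, and Reg3g, Reg3b, Reg2 and Reg3a form another, with r of 0.74 to 0.93 within it.

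*Reg4* was close to background. It was at -2.35, -3.10, -2.73 and -2.95 in WT mice 1 to 4 and at -1.50, -2.97 and -3.88 in CB1_KO mice 1 to 3, and in CB1_KO 3 it was not well above background. The repeat arrays of CB1_KO 2 differed by 0.38 for *Reg4* and by at most 0.10 for the other 6 Reg genes. Its r to the 3-gene index was 0.81 over the 7 mice and 0.54 without WT 2 and CB1_KO 3, and its r to the marker mean was 0.70 (limma adjusted p = 0.146).

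The SD over the 7 mice was 1.51 for *Reg3b*, 1.34 for *Reg3a*, 1.13 for *Reg2*, 0.98 for *Reg3g*, 0.88 for *Reg3d*, 0.73 for *Reg4* and 0.72 for *Reg1*, against a median of 0.39 over all probes compared. After a straight line on the acinar marker mean was taken out, the residual SD was 0.17 for *Reg1* and 0.28 for *Reg3d*, as that mean carried 95.4% and 91.6% of their variance. For *Reg2*, *Reg3a*, *Reg3b* and *Reg3g* the residual SD was 1.21, 1.46, 1.44 and 0.89, and the share was 3.85%, 0.312%, 24.6% and 31.2%. *Reg4* had a residual SD of 0.57 and a share of 49.6%. WT 4 lay farthest below the line for all 4 of these genes, with residuals of -2.19, -2.59, -2.26 and -1.35 log2 units.

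**Figure D4:**
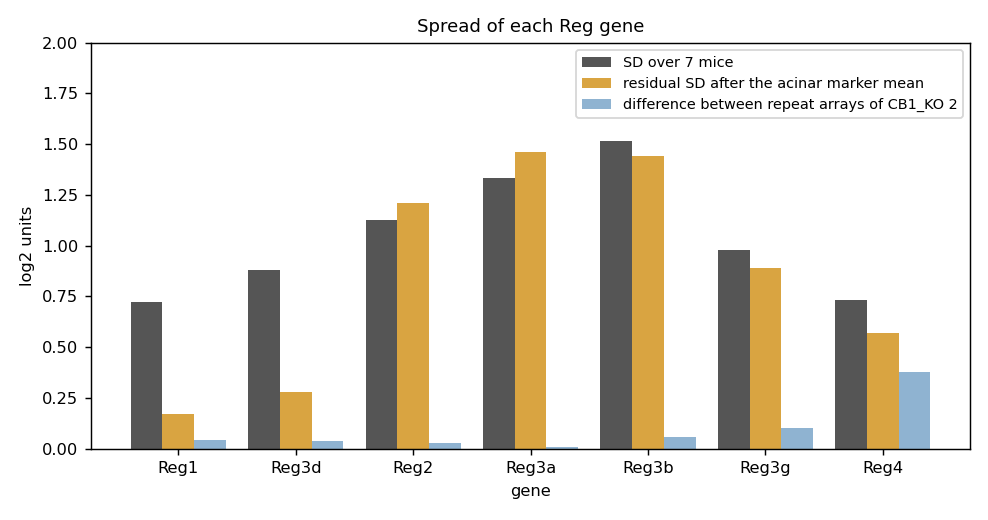
SD of each Reg gene over 7 mice, its residual SD after a line on the mean of 28 acinar markers, and the size of the difference between the repeat arrays of CB1_KO mouse 2 (bars, log2 units). The residual bar falls to 0.17 for Reg1 and 0.28 for Reg3d, and stays between 0.89 and 1.46 for Reg2, Reg3a, Reg3b and Reg3g.

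Between genotypes, no Reg gene passed the adjusted threshold (limma adjusted p of 0.999 or more for each), and 0.11% of all probes compared did (43 of 39165). That count was 22 without WT 1, 15 without WT 2, 5 without WT 3, 19 without WT 4, 42 without CB1_KO 1, 0 without CB1_KO 2, 5 without CB1_KO 3 and 0 with the replicate number as a block over 6 mice, so the share is itself unsteady. Before adjustment 3 of the 7, *Reg2*, *Reg3b* and *Reg3g*, were under 0.05 in limma, as were 3.59% of all probes compared (1406). *Reg3b* had the largest difference among them, with 5.67 ± 0.69 in CB1_KO (SD, n = 3) and 3.60 ± 1.35 in WT islets (SD, n = 4), a log2 difference of 2.07 ± 0.71 (SE; exact permutation p = 0.0857). *Reg2* was 9.40 ± 0.59 in CB1_KO and 7.90 ± 1.02 in WT islets, a log2 difference of 1.50 ± 0.55 (SE; exact permutation p = 0.0571). For both genes every CB1_KO mouse was above every WT mouse, which held for 2.16% of all probes compared. The log2 difference was 1.39 ± 0.75 for *Reg3a* and 1.32 ± 0.48 for *Reg3g* (exact permutation p = 0.200 and 0.114), with overlapping groups, and without WT 4 it was 0.72 for *Reg3a* and 1.00 for *Reg2*. It was 0.70 ± 0.55 for *Reg3d* and 0.37 ± 0.49 for *Reg1* (exact permutation p = 0.371 and 0.543), and *Reg4* was at -2.78 in both groups. Without WT 2 the difference was 0.26 for *Reg3d* and turned to -0.05 for *Reg1*, without CB1_KO 3 it was 1.17 and 0.75, and with normexp background correction that of *Reg1* was 0.96. The smallest p the 35 splits of the mice allow is 0.0286. With the 28-marker mean as a term beside genotype, the log2 difference was 1.85 for *Reg3b*, 1.48 for *Reg2*, 1.49 for *Reg3a*, 1.15 for *Reg3g*, 0.37 for *Reg3d* and 0.08 for *Reg1*, none past the threshold.

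The upstream pathway of the Reg genes was described from a list of cytokines, receptors, kinases, STAT3 and its inhibitors, together with *Extl3*, whose product is a proposed receptor of Reg proteins. Of its 20 measured genes 10 were higher and 10 lower in CB1_KO islets and none passed the limma threshold, or an unadjusted p of 0.05, with a median log2 difference of 0.02. *Stat3* itself differed by -0.01 ± 0.21 and *Il6ra*, the interleukin-6 receptor chain, by -0.37 ± 0.28. Of 25 measured targets of STAT3 and the acute-phase response, 17 were higher and 8 lower, none past the threshold, with a median of 0.22; over all probes compared 18673 were higher and 20492 lower. *Hp*, haptoglobin, differed by 1.85 ± 0.62 and *Cebpd*, a transcription factor of the acute phase, by 1.26 ± 0.53, and these 2 of 25 were under 0.05 before adjustment, beside 3.59% of all probes.

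Against the acinar marker mean, 3 of the 20 pathway genes rose and 1 fell past the threshold, beside 5.5% of all probes tested that rose and 1.32% that fell (516). *Extl3* rose by 0.76 ± 0.13 log2 units per log2 unit (limma adjusted p = 0.0208, r = 0.95), *Il22ra1*, the interleukin-22 receptor chain, by 1.52 ± 0.24 (limma adjusted p = 0.0154) and *Il11ra1*, the interleukin-11 receptor chain, by 0.62 ± 0.13 (limma adjusted p = 0.0349). *Cntfr*, the ciliary neurotrophic factor receptor chain, had a slope of -1.03 ± 0.19 (limma adjusted p = 0.0261). In the fit on *Reg1* 1 of the 20 pathway genes rose and 1 fell, and in that on *Reg3d* 3 rose and 1 fell, beside 3.28% and 3.39% of all probes that rose and 0.597% and 1.03% that fell (234 and 404). *Extl3* was among those that rose with *Reg1* (slope 0.71 ± 0.13, limma adjusted p = 0.0308) and with *Reg3d* (slope 0.60 ± 0.09, limma adjusted p = 0.0262).

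Markers of other cells were set beside these relations. Against the acinar marker mean 4 of 12 duct markers rose past the threshold (*Krt19*, *Sox9*, *Muc1* and *Tff2*) beside 5.5% of all probes. Of the other 8, *Krt7*, *Cftr* and *Epcam* had slopes below 0 (r = -0.65, -0.50 and -0.07). Of 10 beta cell markers 2 fell past the threshold (*Pdx1* and *G6pc2*), beside 1.32% of all probes, and 7 slopes were below 0, while those of *Ins1*, *Ins2* and *Iapp* were above 0 without passing (r = 0.66, 0.90 and 0.76). The mean of the 12 duct markers, each centred on its own mean, ran from -0.76 to 0.37 in WT and from -0.39 to 0.40 in CB1_KO mice. The fits on *Reg2*, *Reg3a*, *Reg3b* and *Reg3g* called none of the 39164 probes. All 28 acinar markers, which moved nearly as 1 signal, had slopes above 0 in those on *Reg2*, *Reg3b* and *Reg3g* (medians 0.10, 0.22 and 0.36). In the fit on *Reg3a* 5 were above and 23 below 0 (median -0.02). Of all 39164 probes, 22832, 21838 and 22734 had slopes above 0 in the fits on *Reg2*, *Reg3b* and *Reg3g*, and 20928 in that on *Reg3a*. Between genotypes, 6 of 7 alpha cell markers were lower in CB1_KO islets, with a median log2 difference of -0.75, and 4 of the 7 were under 0.05 in limma before adjustment and none after it, beside 3.59% of all probes under 0.05 and 18673 higher and 20492 lower over all probes. Their mean ran from -0.03 to 0.47 in WT and from -0.70 to -0.07 in CB1_KO mice, with WT 4 and CB1_KO 3 next to each other. The share of all probes with every CB1_KO mouse below every WT mouse was not counted. Of the 12 macrophage markers 11 were higher in CB1_KO islets (median 0.40), 1 of the 12 under 0.05 before adjustment, again beside 3.59%, and their mean ran from -0.54 to 0.30 in WT and from -0.09 to 0.58 in CB1_KO mice. Beta cell markers were lower in 9 of 10 (median -0.17) and delta and PP cell markers in 5 of 6 (median -0.43), none of them under 0.05 before adjustment. The mean of 12 immediate-early genes, which islet isolation is known to induce, was -1.77, -2.07, 2.51 and 1.58 in WT mice 1 to 4 and -1.21, 2.61 and -1.65 in CB1_KO mice 1 to 3. The part of other cells in the Reg differences was not tested.

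The genes most like each Reg gene were taken from 4388 genes with an SD of at least 0.5 over the 7 mice, by Pearson r, with the Reg genes themselves left out of the ranking. *Reg1* was closest to *Rufy4*, *Dmbt1* and *Sult5a1* (r = 0.997, 0.996 and 0.994), and *Reg3d* to *Perp*, *Retreg1* and *Bspry* (r = 0.99 for each). *Dmbt1* encodes a secreted mucosal glycoprotein and *Perp* a protein of epithelial junctions. *Reg2* was closest to *Olfr331*, *4933409K07Rik* and *Tle4* (r = 0.98, 0.94 and 0.91), and *Reg3a* to *Olfr331*, *Cyp4f39* and *Capn9* (r = 0.91, 0.89 and 0.87). *Reg3b* and *Reg3g* shared *Hpd*, the gene of the tyrosine-degrading enzyme hydroxyphenylpyruvate dioxygenase, as their closest gene (r = 0.96 for each). *Reg3b* was next closest to *4930524C18Rik* and *Itih4* (r = 0.95 for each), and *Reg3g* to *Rdh7* and *Ribc2* (r = 0.93 and 0.92). *Reg4* was closest to *1700029F12Rik*, *Abca16* and *Clspn* (r = 0.99, 0.98 and 0.98). The genes named for *Reg1* and *Reg3d* passed the limma threshold in the fit on that gene, and those named for the other 5 Reg genes did not.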

How the data were processed

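Islet RNA of 7 mice was hybridised to 8 one-colour Agilent arrays. The authors deposited the processed spot intensity of Feature Extraction 11.5.1.1 (background subtracted, unscaled between arrays) and a Z score per spot, equal within 0.00503 to a Z score computed from log10 intensities. Intensities were put on the log2 scale relative to each array's 75th percentile, marked outlier spots were dropped, spots of a probe and the repeat arrays were averaged. Probes brighter than background in 3 mice or more were fitted with limma 3.58.1 in R 4.3.3, on genotype, the acinar reference or a Reg gene's level, with Benjamini-Hochberg adjustment over all probes and a threshold of 0.05; a reference's own probes were left out of its fit. Exact permutation tests were two-sided. Symbols came from RefSeq GRCm38.p6 by transcript (28026 probes), the brightest probe standing for a gene. The fits were tested on simulated data: 200 probes changed by 2 log2 units between genotypes were called in 57.5% of cases and those changed by 1 in 0%. The simulated probes took the spread of all probes compared (median SD over 7 mice 0.39). The Reg genes spread more (SD 0.72 to 1.51), so these rates may be too high for them. Members, lists and tests were chosen with earlier results of these data known. Alternatives covered background correction, scaling, the deposited Z scores, filters, repeat arrays, single mice, a replicate block, the methods' t test and other acinar references. Named genes were the members, the index genes, the 3 genes most like each member, list genes past the threshold and *Cnr1*; *Stat3*, *Il6ra*, *Hp*, *Cebpd*, *Krt7*, *Cftr*, *Epcam*, *Ins1*, *Ins2* and *Iapp* were named after their values were seen. Replicates are separate mice, and their number limits the precision.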

Additional observations from a re-analysis of the deposited data

Results flagged for a closer look

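*Reg1* in WT mouse 2 stood apart from the other WT mice, at 8.67 against 10.25 to 10.37, with a gap of 0.933 of the range of the 4 mice. It was the only such WT mouse among 12 genes and acinar references examined, where chance gives about 0.6. The CB1_KO mice were not examined in this way, and there *Reg1* was at 9.49 in CB1_KO 3 against 10.65 and 10.66. WT 2 was also lowest for 21 of the 28 acinar markers.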

How the results depend on the processing

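With the acinar marker mean as reference, r was 0.90 to 0.99 for *Reg1* and 0.94 to 0.97 for *Reg3d* under normexp, quantile normalisation, the deposited Z scores and the values reported, with limma adjusted p between 0.00121 and 0.0427; these were added after seeing the data. In place of the 3-gene index (0 probes rising past the threshold), that mean gave r = 0.98 for *Reg1*, 0.96 for *Reg3d* and -0.056 for *Reg3a* and 2152 rising probes, *Cel* alone gave 0.98, 0.96 and -0.0048 and 1660 probes, *Cel* with *Ctrb1* (also added after seeing the data) gave 0.95 for *Reg1* and 0.94 for *Reg3d* and 1603 probes, and *Cpa1* alone gave -0.043 for *Reg1*. *Ctrb1* alone gave 0.86 for *Reg1* and 0.87 for *Reg3d*, neither past the threshold (limma adjusted p = 0.0828 and 0.0752), and 0 probes. Normexp gave 0.94 for *Reg1* and 0.97 for *Reg3d* against the 3-gene index, both past the threshold, and 2227 probes. Quantile normalisation turned the sign against that index, to -0.51 for *Reg1*, -0.63 for *Reg3d*, -0.027 for *Reg3b*, -0.083 for *Reg3g* and -0.50 for *Reg4*; the cause was not tested. Array 2-2 alone gave 1 rising probe. Leaving out each mouse gave 0 to 1 rising probes, and r to the index of -0.12 to 0.49 for *Reg3a*, 0.10 to 0.73 for *Reg2*, 0.29 to 0.93 for *Reg3b*, 0.54 to 0.84 for *Reg3g*, 0.76 to 0.96 for *Reg1*, 0.76 to 0.93 for *Reg3d* and 0.63 to 0.96 for *Reg4*, with the highest r of *Reg2*, *Reg3a*, *Reg3b*, *Reg3d* and *Reg3g* without CB1_KO 3. The r between *Reg1* and *Reg3d* was 0.92 under quantile normalisation (limma adjusted p = 0.0601) and 0.90 without WT 2, and the 6 pairs among *Reg2*, *Reg3a*, *Reg3b* and *Reg3g* kept r of at least 0.59 with other background correction, scaling, filters and repeat arrays and without any single mouse; without both WT 4 and CB1_KO 2 those of *Reg3a* fell to 0.13 to 0.27.

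Between genotypes no Reg gene passed the threshold under any alternative, the methods' t test before adjustment included. *Reg4* changed sign, to 0.051 under quantile normalisation, 0.019 as a Z score and 0.061 with array 2-2 alone. Leaving out each mouse gave log2 differences of -0.045 (without WT 2) to 0.75 for *Reg1* (0.96 with normexp) and -0.64 to 0.55 for *Reg4*. Sign was kept for the other 5 Reg genes, at 1.00 (without WT 4) to 1.74 for *Reg2*, 0.72 (without WT 4) to 1.81 for *Reg3a*, 1.67 to 2.49 for *Reg3b*, 0.26 (without WT 2) to 1.17 (without CB1_KO 3) for *Reg3d* and 0.94 to 1.81 for *Reg3g*. Of all probes, 43 passed as reported, 23 without a filter, 24 with probes well above background on all 8 arrays, 17 with the marker mean as a term (added after seeing the data), 0 to 42 without one mouse, and by the methods' t test 1412 before and 0 after adjustment. Deviations from the group means correlated at 0.42 between the mice numbered 1, -0.27 between those numbered 2 and -0.06 between those numbered 3, so the numbers were not taken as pairs; with the replicate number as a block over 6 mice the log2 difference was 1.68 for *Reg3b* and 1.00 for *Reg2*, and 0 probes passed. A slide or scan block was not run, since there was 1 slide and 1 scan. *Reg4*, near background, is the least certain of the Reg genes.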
